A study of Homo sapiens with 28 samples.

Results

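DNA replication needs a helicase, a primase, polymerases and a supply of deoxynucleotides, and the genes for these parts are largely switched on together as a cell enters S phase. This set holds 47 such genes, chosen by their symbols. All 47 were among the 60286 genes of the count table, and all 47 were among the 16325 genes with enough counts to test. They fall into 9 roles: the MCM ring (6 genes), origin licensing (5), helicase activation (6), the sliding clamp and its loaders (6), polymerases and primase (8), strand maturation and single-strand binding (5), nucleotide supply (5), chromatin copying (3) and fork protection (3).

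Licensing takes place in G1, when ORC, CDC6 and CDT1 place the MCM ring on origins. In S phase CDC45 and GINS join the ring to make the active helicase, primase and polymerases copy the strands on the PCNA clamp, and FEN1 and LIG1 seal the lagging strand. Ribonucleotide reductase and thymidylate synthase set the supply of deoxynucleotides. Transcription factors of the E2F family are known regulators of many of these genes.

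The cells were HT-1080, a human fibrosarcoma line labelled wild type, so every group shares that 1 tumour background. The 7 treatments lasted overnight. DMSO was the vehicle control, and RSL3 was used at 10 nM. The isomers LA (linoleic acid) and CLA18:2 (its conjugated form) were used at 80 µM, each with and without that dose of RSL3, and CLA18:3 alone was used at 5 µM. RSL3 inhibits GPX4, the enzyme that reduces lipid hydroperoxides, and is used to induce ferroptosis. The double bonds are separated by a methylene group in LA and conjugated in CLA18:2, while CLA18:3 is a conjugated acid with a further double bond. The sample labels write mM for the acids where the design text writes µM, and µM is used here. Each group had 4 libraries, described as independent, and p values measure only the spread between libraries of a group. For each gene that spread was pooled over all 7 groups.

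Library totals ran from 16226270 to 24286824 counts. Of 10 mesenchymal and fibroblast markers, 7 were at 1 CPM (counts scaled to a common library total) or more in every library. THY1 alone of the 10 was under 1 CPM in every library. Of 11 epithelial markers, 7 were under 1 CPM in every library and 3 were at 1 CPM or more in every library. The keratin genes KRT8 and KRT18 were among these 3, at 657 and 175 CPM in DMSO replicate 1. All 9 blood cell markers were under 1 CPM in every library, with HBA1 at 0. The spread between replicates, as a biological coefficient of variation, was lowest in DMSO at 4.50% and highest in CLA18:3 at 20%. RSL3+CLA18:2 came next with 15.3%, and the remaining groups lay between 7.31% and 9.02%. The main tests used 1 pooled spread per gene, so SEs, intervals and p values for CLA18:3 and RSL3+CLA18:2 can be too small. On principal component 3, replicates 1 and 2 of CLA18:3 stood apart from their group at opposite ends (-59.1 and 49.8). On component 4, replicate 4 of RSL3+CLA18:2 stood apart from its group at 39. Replicate 4 of CLA18:3 lay there at -44.6, with replicates 1 and 2 of its group at 22.9 and 25.1. Mitochondrially encoded mRNA also varied between libraries, from 0.263% to 1.93% of counts, and its part in the results below was not tested except where a value is given.

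A search of promoter sequence gave 1 feature that the choice of genes did not use. RefSeq promoters on GRCh38.p14, from 250 bases before to 50 bases after a start, were at hand for 39 of the 47 genes. An E2F-type site (TTTCCCGC, TTTCGCGC, TTTGCCGC or TTTGGCGC on either strand, of which some can overlap) was present in 21 of these 39 (53.8%), against 3.99% of all 27305 genes in that table and 6.55% of the 10987 that were also tested here. The CCAAT box was found in 59.0% of the 39, against 39.7% of all genes and 42.9% of those tested. The CHR-type letters TTTGAA were found in 5.13%, against 18.2% and 13.7%. The NRF2-type letters TGACNNNGC were found in 23.1%, against 16.1% and 19.2%, so they lay close to the share among tested genes. With the 250 bases before the start alone, 15 of 39 held an E2F-type site. A match is a description of letters and does not show binding. Windows are printed below for 8 genes with large or central responses, 5′ to 3′ on the gene's strand, with the letters of 1 E2F-type site in capitals (on either strand), which leaves a second, overlapping site in MCM6 partly in lower case. The windows of MCM3, MCM6, GMNN and PCNA overlap no GENCODE release 29 exon. Those of CDT1, GINS2, RFC3 and UHRF1 were kept to 30 bases, since they lie in or beside annotated exons. The sites begin from 14 (UHRF1) to 174 (MCM3) bases before the RefSeq start.
MCM3, chr6:52284883-52284942, minus strand: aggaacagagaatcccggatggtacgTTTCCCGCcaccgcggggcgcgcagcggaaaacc
MCM6, chr2:135876500-135876559, minus strand: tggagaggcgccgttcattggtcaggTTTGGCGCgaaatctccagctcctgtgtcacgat
GMNN, chr6:24775307-24775366, plus strand: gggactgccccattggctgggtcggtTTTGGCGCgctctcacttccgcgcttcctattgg
PCNA, chr20:5126648-5126707, minus strand: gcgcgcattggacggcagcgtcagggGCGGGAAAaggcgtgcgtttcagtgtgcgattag
CDT1, chr16:88803743-88803772, plus strand: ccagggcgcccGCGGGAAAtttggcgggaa
GINS2, chr16:85688967-85688996, minus strand: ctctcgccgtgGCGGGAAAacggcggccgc
RFC3, chr13:33818083-33818112, plus strand: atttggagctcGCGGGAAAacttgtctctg
UHRF1, chr19:4909471-4909500, plus strand: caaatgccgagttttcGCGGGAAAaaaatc
The 8 genes above fell with CLA18:2 by 0.48 (PCNA) to 0.98 (UHRF1) on the log2 scale, as described below. Their response was part of the choice, so these falls are no result about the sites. Genes with a site before the start whose windows are not printed ran from -0.23 (POLA2, which did not pass) to -0.65 (POLE).

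In DMSO the levels per kb of exon spanned a wide range. PCNA, the sliding clamp, was the most abundant at 157 ± 3.24 CPM per kb (SD, n = 4), followed by the flap nuclease FEN1 at 114, the ribonucleotide reductase subunit RRM2 at 99.8, MCM7 at 99.2 and thymidine kinase TK1 at 79.9. The least abundant were POLA2, the regulatory subunit of polymerase alpha, at 2.19 CPM per kb, POLE2 at 3.56 and GINS3 at 3.81. Together the 47 genes took 0.501% of all counts in DMSO and 0.352% with CLA18:2. The share was 0.444% with RSL3+CLA18:2, 0.439% with CLA18:3, 0.468% with LA, 0.475% with RSL3+LA and 0.513% with RSL3. CLA18:2 alone therefore held the lowest share of the 7 groups, and its 4 libraries (0.346% to 0.362%) did not overlap any other group. These are shares of raw counts. Scaled by TMM factors, the share was 0.350% with CLA18:2, again the lowest without overlap. RSL3+CLA18:2 then had 0.452%, CLA18:3 0.456%, LA 0.460%, RSL3+LA 0.465%, DMSO 0.495% and RSL3 0.516%. CLA18:3 thus moved above RSL3+CLA18:2, and its libraries (0.446% to 0.463%) overlapped those of LA.

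**Figure D1:**
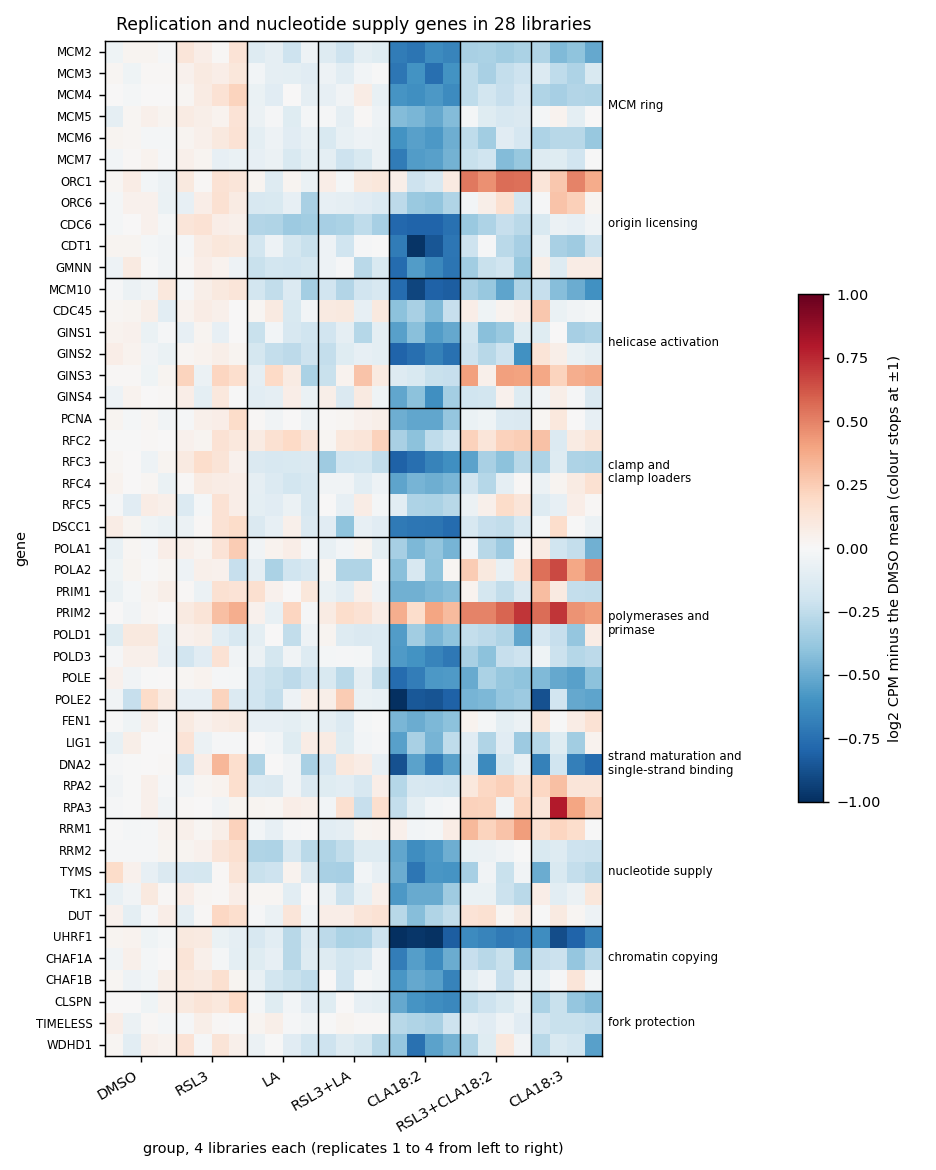
Level of each of the 47 genes (rows, by role) in each of the 28 libraries (columns, 4 per group), as log2 CPM minus the DMSO mean, with colour stopping at ±1. The 4 CLA18:2 libraries are blue in nearly every row, the RSL3+CLA18:2 libraries are paler, and ORC1 and PRIM2 stand out in red with RSL3+CLA18:2 and CLA18:3.

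CLA18:2 alone lowered almost the whole set. Against DMSO, 41 of 47 genes fell and 1 rose, with a median log2 fold change of -0.51, where the median over all genes was -0.02. Of all 16325 genes 18.6% were lower and 20.1% were higher in this comparison (edgeR quasi-likelihood test, Benjamini-Hochberg adjusted p under 0.05, the rule for every call below). For 41 genes every CLA18:2 library was below every DMSO library, as for 20.8% of all genes. In a culture, fewer cells in S phase and less of these mRNAs per cell cannot be told apart. Below, a change is on the log2 scale and given with its SE, every group has 4 libraries, and the CPM of a group are listed from replicate 1 to 4.

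The MCM ring fell as a whole. All 6 subunits were lower with CLA18:2, by 0.46 to 0.68. MCM2, a subunit of the ring, had 158, 166, 166 and 161 CPM in DMSO and 100, 98.1, 105 and 103 with CLA18:2, a change of -0.68 ± 0.04 (adjusted p = 8e-15). MCM5 went from 169, 182, 186 and 183 CPM to 133, 131, 126 and 133 (-0.46 ± 0.04). For neither subunit did the groups overlap. The other 4 lay between them, with MCM3 at -0.67 and MCM4 at -0.60.

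Among the licensing factors, the loaders and their inhibitor fell while the origin-binding subunit ORC1 did not. CDC6, the ATPase that loads MCM, had 115, 117, 120 and 115 CPM in DMSO and 67.8, 66.9, 67.1 and 69.5 with CLA18:2. Its change of -0.78 ± 0.04 had the smallest adjusted p of the 47 genes, 4.9e-17. CDT1, its partner in loading, went from 74.8, 74.8, 72.3 and 71.8 CPM to 45.2, 37.3, 40.6 and 44.5 (-0.81 ± 0.07). GMNN, which encodes geminin, the inhibitor of CDT1, fell too, from 62.1, 68.6, 64.3 and 63 CPM to 37.8, 43.7, 41.2 and 38.9 (-0.68 ± 0.06). So both the loader CDT1 and its inhibitor were lower in every CLA18:2 library. ORC1 had 35.5, 36.9, 34.4 and 33.7 CPM in DMSO and 36.5, 30.4, 31.5 and 37.3 with CLA18:2, and the groups overlapped (-0.05, 95% interval -0.20 to 0.10). ORC6 fell by 0.33.

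In helicase activation, MCM10, which helps to start the helicase, fell from 90.7, 87.8, 89.3 and 98.7 CPM to 53.8, 48.4, 52.4 and 51.6 (-0.83 ± 0.06). The GINS complex has 4 subunits in equal number, and their transcripts moved by different amounts: GINS2 by -0.74 ± 0.07, GINS1 by -0.51, GINS4 by -0.46, and GINS3 by -0.18, which did not pass (95% interval -0.39 to 0.03). CDC45, which joins MCM and GINS, fell from 45.5, 45.6, 46.7 and 41.6 CPM to 33.7, 35.7, 33 and 38.1 (-0.35 ± 0.07). The clamp PCNA fell from 236, 228, 234 and 226 CPM to 165, 161, 161 and 177 (-0.48 ± 0.04). All 5 loader genes fell as well. RFC3 fell by 0.71 and DSCC1, of the alternative loader used in cohesion, by 0.73, while RFC5 fell by 0.25 and RFC2 by 0.30.

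Of the 8 polymerase and primase genes 6 fell, and 1 gave the only rise of the set. POLE2, the second subunit of the leading-strand polymerase, had 10.2, 8.92, 11.9 and 11.1 CPM in DMSO and 4.87, 5.81, 5.76 and 5.97 with CLA18:2 (-0.91 ± 0.13, adjusted p = 5.3e-07), and its catalytic partner POLE fell by 0.65. PRIM1, the catalytic primase subunit, fell by 0.46. PRIM2, the large primase subunit, rose in every library, from 44, 42.8, 44.4 and 44 CPM to 56.2, 49.6, 57.6 and 54.6 (0.31 ± 0.07, adjusted p = 0.00055). The 2 primase subunits thus moved in opposite directions. PRIM2 has a close partial copy in the genome, so reads shared with it leave its value uncertain. The difference for POLA2, -0.23, missed the threshold (95% interval -0.44 to -0.01, adjusted p = 0.0918).

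For strand maturation, FEN1 fell from 283, 275, 293 and 283 CPM to 206, 201, 208 and 213 (-0.45 ± 0.04), the ligase gene LIG1 by 0.39 and the nuclease and helicase gene DNA2 by 0.65. RPA2, of the single-strand binding complex, fell by 0.20, though not past the test with the libraries of at least 0.8% mitochondrial mRNA alone (adjusted p = 0.0765). RPA3, its smallest partner, had 29.6, 29.8, 31 and 29.2 CPM in DMSO and 25.4, 27.9, 29.3 and 29.7 with CLA18:2, a difference of -0.09 with a 95% interval of -0.29 to 0.11.

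The subunits of ribonucleotide reductase parted. RRM2, the small subunit whose level is known to follow S phase, fell from 527, 528, 528 and 542 CPM to 371, 346, 356 and 379 (-0.55 ± 0.04). RRM1, the large subunit, had 218, 216, 217 and 224 CPM in DMSO and 226, 215, 216 and 230 with CLA18:2 (0.02, 95% interval -0.08 to 0.12), so its groups overlapped. TYMS, thymidylate synthase, fell from 72.5, 66, 60.4 and 58 CPM to 45.4, 38.7, 42.7 and 42.5 (-0.60 ± 0.09). Its exons overlap those of ENOSF1 on the opposite strand over 39.1% of their length, and the strand setting of the counting is not given in the sources used here. TK1, the thymidine salvage kinase, fell from 141, 145, 159 and 150 CPM to 99.6, 105, 105 and 116 (-0.48 ± 0.06). DUT, which removes dUTP, fell least of the 4, from 126, 114, 121 and 128 CPM to 101, 91, 99 and 103 (-0.31 ± 0.06).

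UHRF1, which brings the maintenance methyltransferase to newly copied DNA, had the largest change of all 47 genes. It went from 188, 189, 179 and 182 CPM to 84.4, 94, 93.1 and 104, a fall to 0.508 of the DMSO level (-0.98 ± 0.06, adjusted p = 8.1e-16). CHAF1A, of the histone chaperone that follows PCNA, fell from 101, 107, 102 and 104 CPM to 64, 70.8, 66.9 and 73.3 (-0.59 ± 0.06). The fork protection genes fell together. CLSPN, which encodes the checkpoint mediator claspin, went from 82.6, 82.5, 79.6 and 84 CPM to 57.6, 54.7, 53.3 and 52.6 (-0.59 ± 0.05), WDHD1 fell by 0.53 and TIMELESS by 0.28.

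**Figure D2:**
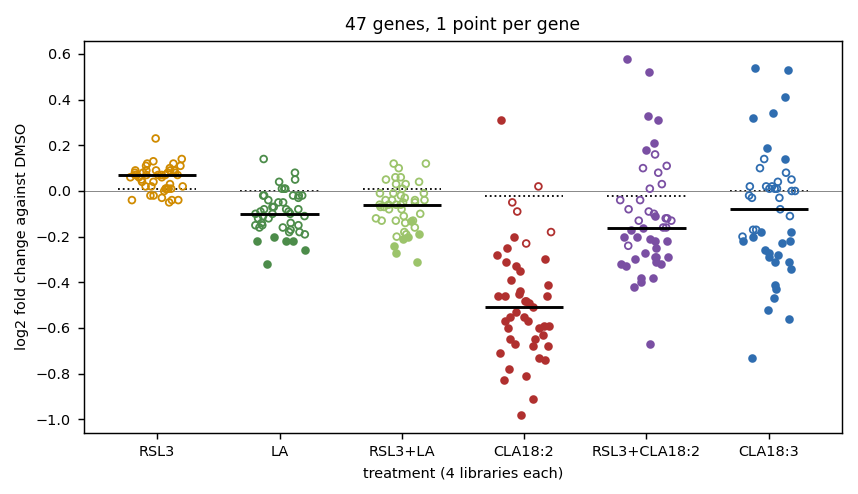
Log2 fold change against DMSO of each of the 47 genes (points) for 6 treatments, with filled points for genes that passed the test, solid bars for the median of the 47 and dotted bars for the median of all genes tested. The points for CLA18:2 lie mostly between -0.98 and -0.25, those for RSL3, LA and RSL3+LA within 0.4 of 0, and those for RSL3+CLA18:2 and CLA18:3 spread to both sides.

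LA is the isomer given at the same 80 µM dose, and its changes were smaller. Against DMSO 6 genes fell and 0 rose, with a median of -0.10, where 3.41% of all genes were lower and 4.91% higher. CDC6 fell to 95.5, 95, 90.8 and 91.8 CPM (-0.32 ± 0.04, adjusted p = 6.4e-07) and RRM2 to 431, 428, 475 and 440 CPM (-0.26 ± 0.04). POLE fell by 0.22, and MCM10, GINS2 and GMNN fell by 0.22, 0.22 and 0.20. These last 3 did not pass in some fits that left out 1 library, with adjusted p up to 0.106, 0.106 and 0.14, and without LA replicate 2 or LA replicate 4 the count was 3. A fit of the LA and DMSO libraries alone called 16 lower and 1 higher. PCNA, at 233, 226, 231 and 223 CPM, overlapped its DMSO values (-0.02, 95% interval -0.10 to 0.07).

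Set directly against LA, CLA18:2 had 38 genes lower and 1 higher, with a median of -0.43, beside 14.6% lower and 15.6% higher of all genes. UHRF1 differed by -0.81 ± 0.06 (adjusted p = 2.2e-13), POLE2 by -0.80 ± 0.13, DSCC1 by -0.66, CDT1 by -0.65 and MCM10 by -0.60. CDC6 and RRM2, which LA also lowered, were lower still with CLA18:2, by 0.46 and 0.29. PRIM2 was higher with CLA18:2 than with LA, by 0.27 ± 0.07. The remaining 8 genes did not pass. For ORC1 the difference was -0.01 (95% interval -0.16 to 0.13) and for RRM1 0.05 (-0.05 to 0.15), while RPA2 lay at -0.08 (-0.20 to 0.03), POLA2 at -0.04 (-0.25 to 0.18) and RPA3 at -0.13 (-0.33 to 0.07). GINS3, ORC6 and RFC5 lay at -0.16, -0.15 and -0.14.

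RSL3 alone gave no call in the set. Of the 47 genes 0 passed in either direction against DMSO by edgeR, DESeq2 or limma voom, and 5 had an unadjusted p under 0.05. Of all genes 0.202% passed. The estimates were small and mostly positive, above 0 for 39 genes, around a median of 0.07, and lay between -0.05 and 0.23. Of all 16325 genes, 8590 had an estimate above 0. For 9 of the 47 genes every RSL3 library was above every DMSO library, as for 3.98% of all genes. For 0 of the 47 every RSL3 library was below, as for 2.58% of all genes. CDC6, for example, had 127, 129, 122 and 121 CPM (0.10, 95% interval 0.01 to 0.18, adjusted p = 0.706), and its 4 values lay just above those of DMSO.

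Adding RSL3 to CLA18:2 raised the set. Against CLA18:2 alone, 43 genes were higher and 0 lower, and all 47 estimates were above 0, from 0.11 to 0.61 around a median of 0.36. Of all genes 6.68% were higher and 5.26% lower. For 40 genes every RSL3+CLA18:2 library was above every CLA18:2 library, as for 7.61% of all genes. Since the CLA18:2 libraries are also those in which the set was lowest against DMSO, both comparisons rest on the same 4 libraries. The LA and CLA18:2 samples also carry a run of sample numbers apart from that of the other groups. Both comparisons, and the interaction with CLA18:2 below, cross that split. So do LA against DMSO, RSL3+LA against LA and the RSL3 by LA interaction. CLA18:2 against LA and RSL3+CLA18:2 against RSL3+LA do not cross it. The labels name no batch, and the part of this split in the results was not tested.

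CDT1 had the largest such difference. It had 63.7, 72.8, 61 and 58.2 CPM with RSL3+CLA18:2, against 45.2, 37.3, 40.6 and 44.5 with CLA18:2 alone (0.61 ± 0.07, adjusted p = 2.8e-07). CDC6 had 90.4, 94.3, 99.3 and 96.7 CPM (0.49 ± 0.04). The groups did not overlap for either licensing gene. RRM2 reached 508, 509, 519 and 529 CPM (0.51 ± 0.04), a level that differed from DMSO by -0.04 (95% interval -0.13 to 0.05). FEN1, at 290, 280, 265 and 272 CPM, also differed from DMSO by -0.04 (-0.11 to 0.04). For these 2 genes the estimate against DMSO was thus close to 0. PCNA had 221, 224, 210 and 209 CPM (0.38 ± 0.04), again with no overlap with CLA18:2 alone. UHRF1 rose less, to 119, 117, 113 and 115 CPM (0.30 ± 0.06), and remained below DMSO by 0.67. It was the gene that stayed furthest below DMSO.

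The other nucleotide supply genes rose as well. TYMS had 50.9, 62.3, 54.8 and 62.6 CPM (0.45 ± 0.09). TK1 had 142, 142, 128 and 123 CPM (0.32 ± 0.06). DUT had 134, 136, 124 and 129 CPM (0.41 ± 0.06). Each of these 3 was higher in every RSL3+CLA18:2 library than in any with CLA18:2 alone. The same held for the helicase genes MCM2, at 130, 131, 128 and 131 CPM (0.36 ± 0.04), and MCM5, at 177, 165, 161 and 163 CPM (0.35 ± 0.04). CDC45 returned to 46.9, 43.4, 45.8 and 47 CPM (0.38 ± 0.07), a span that takes in most of its DMSO values. GMNN, at 50.7, 55.3, 56.2 and 49.5 CPM (0.39 ± 0.06), stayed below every DMSO library. So did CLSPN, at 68.8, 71.2, 74 and 77.9 CPM (0.42 ± 0.05), and CHAF1A, at 88, 85.6, 88.5 and 74.8 CPM (0.29 ± 0.06). POLE2 rose to 7.59, 7.65, 8.01 and 8.14 CPM (0.49 ± 0.13), likewise under each DMSO value. The 4 genes that did not pass were RPA3, POLA1, LIG1 and POLD1.

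Some genes went past the DMSO level. Against DMSO, RSL3+CLA18:2 had 23 genes lower and 6 higher (median -0.16), beside 16.6% and 18.6% of all genes. The 6 that were higher are thus a smaller share than among all genes. The 6 higher were PRIM2, ORC1, GINS3, RRM1, RFC2 and RPA2. ORC1 had 50.5, 48.3, 51.7 and 51.3 CPM (0.52 ± 0.07, adjusted p = 3.2e-07), above every library of the other groups except 1 with CLA18:3 at 49.6 CPM. PRIM2 reached 61.9, 61.9, 65.4 and 71.8 CPM (0.58 ± 0.07). RRM1, which CLA18:2 alone had not changed past the test, reached 274, 255, 267 and 293 CPM (0.31 ± 0.05), above all 4 DMSO libraries. RFC2 had 72.2, 67.1, 72.2 and 73.2 CPM (0.21 ± 0.06). It was thus lower than DMSO with CLA18:2 alone and higher with RSL3 added, and so was RPA2 at 70.1, 75.3, 77 and 72.7 CPM (0.18 ± 0.06). GINS3 had 25.9, 20.2, 25.9 and 25.8 CPM (0.33 ± 0.10). The genes furthest below DMSO were UHRF1, POLE2 (-0.42), POLE (-0.40), MCM10 and RFC3 (both -0.38).

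**Figure D3:**
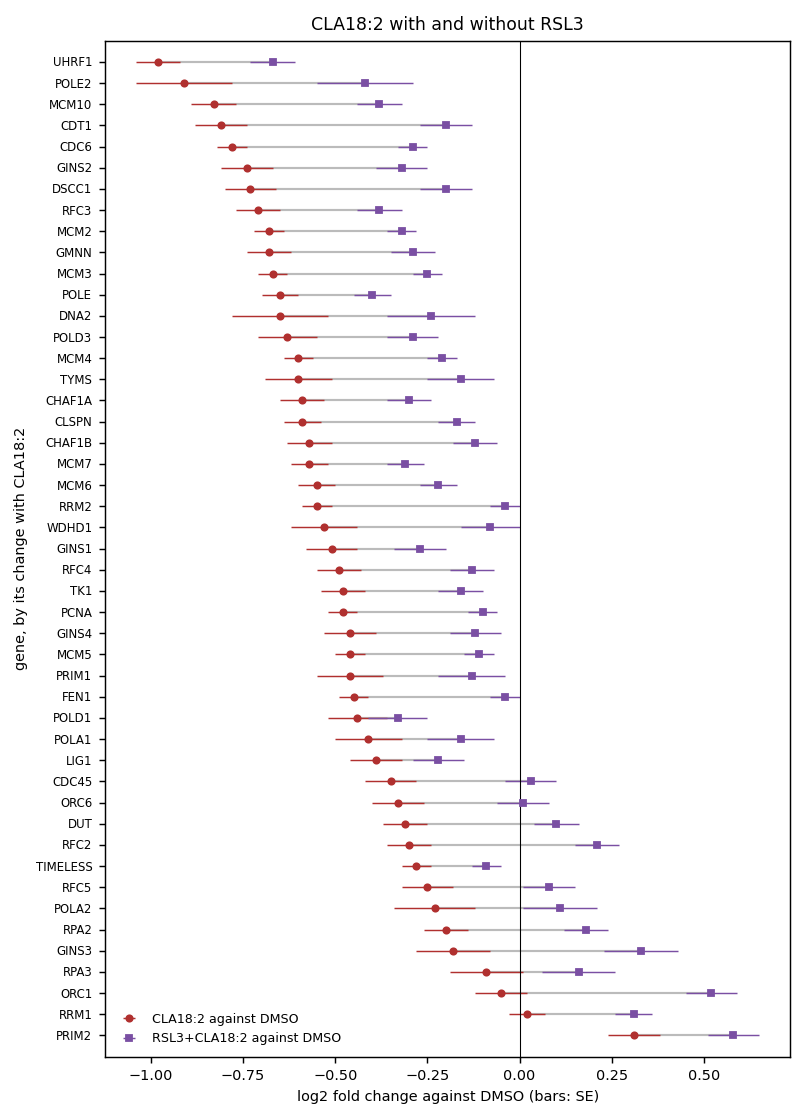
Log2 fold change against DMSO (x axis, bars are SE) of each gene with CLA18:2 alone (circles) and with RSL3 added (squares), ordered by the first. Each square lies to the right of its circle, and the squares of ORC1, RRM1, PRIM2 and GINS3 lie above 0.

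The difference itself was tested as an interaction. The response to RSL3 was more positive in the presence of CLA18:2 than in its absence for all 47 genes by sign and for 27 by the test, with 0 in the other direction and a median of 0.31. Of all genes 1.75% passed in that direction and 1.8% in the other. CDT1 gave 0.54 ± 0.10 (adjusted p = 0.00098), TYMS 0.50 ± 0.12, ORC1 0.48 ± 0.10, DSCC1 0.46 and RFC2 0.42. The median was 0.27 for the MCM ring (6 of 6 passed) and 0.26 for polymerases and primase (1 of 8 passed), so the counts differed where the medians were close. The response to RSL3 was also more positive with CLA18:2 than with LA for 28 genes, 0 in the other direction (median 0.33), where 2.41% of all genes passed in that direction and 1.22% in the other. DSCC1 gave 0.63, WDHD1 0.56 and CDT1 0.52. With LA no such response appeared. RSL3+LA against LA called 0 of 47 by edgeR, DESeq2 and limma voom, with 0 at an unadjusted p under 0.05, a median of 0.02 and 0.049% of all genes called. The RSL3 by LA interaction also called 0 of 47 by these 3 tools, with 1 at an unadjusted p under 0.05 and 0.0245% of all genes called.

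Mitochondrial mRNA moved with these groups in part, at 0.807 ± 0.543% of counts with CLA18:2 and 0.641 ± 0.693% with RSL3+CLA18:2, against 1.40 ± 0.10% in DMSO (SD, n = 4). Within CLA18:2, the 47-gene median against DMSO ran from -0.542 to -0.472 over libraries of 0.312% to 1.48%, and within RSL3+CLA18:2 from -0.184 to -0.143 over libraries of 0.263% to 1.68%. The ranges did not overlap. With libraries of at least 0.8% alone, which leaves 2 with CLA18:2 and 1 with RSL3+CLA18:2, the median of RSL3+CLA18:2 against CLA18:2 was 0.34, with 24 genes called, and 5 genes passed the interaction with CLA18:2. POLA2 then lay at -0.02.

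The combinations were also set against RSL3 alone and against each other. RSL3+CLA18:2 against RSL3, which shares no library with CLA18:2 against DMSO, had 31 genes lower and 3 higher, with a median of -0.22, beside 14.5% and 15.9% of all genes. The 3 are a smaller share than among all genes. UHRF1 (-0.68), RFC3 (-0.49), MCM10 (-0.45), POLE and MCM2 (both -0.41) fell furthest, and ORC1 (0.43), PRIM2 (0.35) and RRM1 (0.22) rose. RSL3+LA against RSL3 had 13 lower and 0 higher (median -0.13), beside 5.8% and 3.78%. CDC6 led at -0.40 ± 0.04, followed by RFC3 (-0.35), RRM2 (-0.29), MCM10 and UHRF1 (both -0.28), and without RSL3 replicate 4 the count was 8. Against DMSO, RSL3+LA had 7 lower and 0 higher (median -0.06), beside 4.81% and 5.43%. These were CDC6 (-0.31), UHRF1 (-0.27), RFC3 (-0.24), MCM10 (-0.21), RRM2 (-0.20), POLE and MCM2, of which MCM10, POLE and MCM2 did not pass in some fits that left out 1 library, and the count was 4 without RSL3+LA replicate 2. Between the isomers in the presence of RSL3, RSL3+CLA18:2 had 16 lower and 6 higher than RSL3+LA (median -0.10), beside 12% and 14.1%. The 6 are close to the share among all genes. Without RSL3+LA replicate 4, RSL3+CLA18:2 had 8 lower and 5 higher. POLE2 (-0.47 ± 0.13), UHRF1 (-0.40), POLD1 and POLD3 (both -0.24) were lower, and PRIM2 and ORC1 (both 0.46) and RRM1 (0.35) were higher. RRM2 changed direction between these isomer comparisons, lower with CLA18:2 than with LA alone and higher by 0.16 ± 0.04 when RSL3 was present.

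CLA18:3 was given at 5 µM, a dose that differs from the others, and was compared with DMSO alone. In the set 19 genes fell, 7 rose and 21 did not pass, with a median of -0.08. Of all genes 16.7% were lower and 19.1% higher, so the 7 that rose are a smaller share than among all genes. UHRF1 led those that fell. These included UHRF1, at 120, 99.5, 106 and 117 CPM (-0.73 ± 0.06, adjusted p = 2e-12), and DNA2, at 11.8, 16.4, 11.7 and 11 CPM (-0.56 ± 0.12). POLE2 (-0.52), POLE (-0.47), MCM10 (-0.43) and MCM2, at 132, 120, 123 and 114 CPM (-0.41 ± 0.04), also fell, and the fork protection genes fell as a group (3 of 3, with CLSPN at 66.1, 70.4, 63 and 60.7 CPM). CHAF1A fell to 88.4, 89.2, 79.2 and 85.9 CPM, below every DMSO library. RRM2 fell to 478, 486, 461 and 457 CPM, with no overlap with DMSO either. TYMS fell to 45.4, 57.5, 54.3 and 52.8 CPM, and CDT1 to 70.5, 58.6, 57.4 and 63.4 CPM. Without replicates 1 and 2 of CLA18:3 and replicate 4 of RSL3+CLA18:2, the count for CLA18:3 was again 26, but not for the same genes, since RPA2 and RRM1 no longer passed.

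The 7 that rose were PRIM2, POLA2, RPA3, GINS3, ORC1, RPA2 and RRM1. PRIM2 had 64.4, 71.9, 59.8 and 58.5 CPM (0.54 ± 0.07) and POLA2 18.4, 19.8, 16.4 and 17.7, against 12.2, 12.8, 12.5 and 12.7 in DMSO (0.53 ± 0.10, adjusted p = 0.00011). POLA2 shares 35.1% of its exon length with another annotated gene on the same strand, AP000944.2. That gene is not listed in the count table. RPA3 had 32.5, 51.9, 39.2 and 35.6 CPM (0.41 ± 0.10), with replicate 2 well above the rest. GINS3 had 25.5, 22.7, 25.1 and 25.5 CPM (0.34 ± 0.10), and ORC1 38.2, 42.4, 49.6 and 45.3 CPM (0.32 ± 0.07). All 4 ORC1 values lay above those of DMSO. RPA2 had 75.3, 80.4, 70.7 and 70.8 CPM (0.19 ± 0.06). It was the gene lower with CLA18:2 and higher with CLA18:3, though without CLA18:3 replicate 2 it did not pass. RRM1 (243, 254, 247 and 218 CPM, 0.14 ± 0.05) lost its call under 12 of 17 alternatives, among them other scaling factors.

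Many genes that CLA18:2 lowered did not pass the test with CLA18:3. PCNA had 234, 248, 231 and 218 CPM (0.01, 95% interval -0.08 to 0.10). MCM5 had 177, 184, 168 and 180 CPM (-0.02, -0.10 to 0.06), and GMNN 67, 58.9, 68 and 68 CPM (0.02, -0.10 to 0.14). These groups overlapped those of DMSO. TK1 had 156, 138, 143 and 161 CPM (0.01, -0.11 to 0.12) and DUT 122, 130, 124 and 118 CPM (0.02, -0.10 to 0.13). FEN1 had 307, 283, 298 and 314 CPM (0.08, 0.00 to 0.16), and CDC45 had 54, 42.8, 43.7 and 44.2 CPM (0.04, -0.10 to 0.18). CDC6 was the exception in its libraries: at 105, 112, 110 and 114 CPM all 4 lay under the lowest DMSO value of 115, though the difference of -0.08 did not pass (-0.17 to 0.00). The 3 smallest changes were those of PRIM1, CHAF1B and GINS2, at 0.00, 0.00 and 0.01. No test of CLA18:3 against CLA18:2 was made, since the doses differ.

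With CLA18:3 the change ran with exon length, taken over all annotated exons of a gene. Among the 47 genes, Spearman's rho with exon length was -0.37, and the 24 shorter genes had a median of 0.01 against -0.18 for the 23 longer ones. Over 13885 tested genes with a length, rho was -0.21. With CLA18:2 the same rho was -0.06 for the 47 genes and 0.10 over all. For RSL3+CLA18:2 it was -0.19 and 0.03 against DMSO, and -0.22 and -0.11 against CLA18:2. For LA against DMSO it was -0.17 and 0.05. These are descriptions across genes of the same libraries. At a common total of 16226270 counts, 18679 to 20452 genes were detected in CLA18:3 libraries, 19013 to 21288 with RSL3+CLA18:2, 21550 to 22221 with CLA18:2 and 22678 to 22897 in DMSO. The part of this in the results for CLA18:3 and RSL3+CLA18:2 was not tested.

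**Figure D4:**
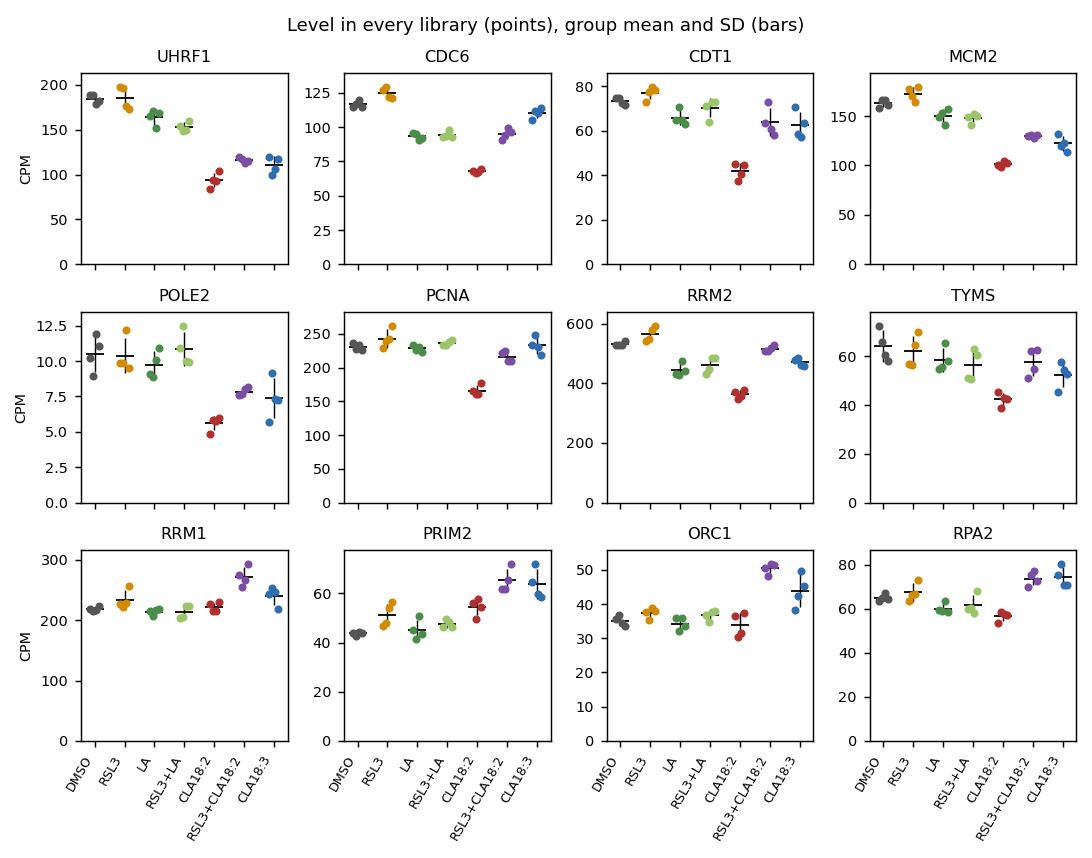
CPM of 12 genes in every library (points), with the group mean and SD (bars), on axes that start at 0. UHRF1, CDC6, CDT1, MCM2, POLE2, PCNA, RRM2 and TYMS are lowest with CLA18:2, while RRM1, PRIM2, ORC1 and RPA2 are highest with RSL3+CLA18:2 or CLA18:3.

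Genes with and without an E2F-type site in the promoter differed in their medians, given as a description. With CLA18:2 the 21 genes with a site had a median of -0.60 (19 lower, 0 higher) and the 18 without a median of -0.44 (15 lower, 1 higher). With CLA18:3 the medians were -0.20 (11 lower, 2 higher) and 0.00 (5 lower, 3 higher). For RSL3+CLA18:2 against CLA18:2 they were 0.38 and 0.34, with 19 of 21 and 17 of 18 higher. Of all genes 18.6% were lower and 20.1% higher with CLA18:2, and 16.7% lower and 19.1% higher with CLA18:3. For RSL3+CLA18:2 against CLA18:2, 6.68% of all genes were higher.

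Related genes outside the set were counted from lists of the same machinery and cell cycle. Of 38 other replication genes, 26 fell and 3 rose with CLA18:2 (median -0.32), and 17 rose with RSL3 added to it. Of all genes 18.6% were lower and 20.1% higher with CLA18:2, and 6.68% were higher with RSL3 added to it. The histone chaperone gene ASF1B fell by 0.73 and MCMBP, an MCM-binding protein gene, by 0.60, while ASF1A, the other ASF1 gene, rose by 1.12 ± 0.08. With CLA18:3 ASF1A rose by 1.10, ORC3 by 0.84, and MCMBP and TOPBP1 fell by 0.37 and 0.40 (12 fell and 4 rose of 38). Of all genes 16.7% were lower and 19.1% higher with CLA18:3, so the 4 that rose are a smaller share. Of subunits whose partners are in the set, RPA1 fell by 0.29 with CLA18:2 and RFC1 by 0.25. ORC2, at -0.05, did not pass, and ORC3 rose by 0.85 ± 0.09. CDC7, the kinase that fires origins, fell by 0.44 and DNMT1, the maintenance methyltransferase, by 0.36.

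Of the 16 other genes of deoxynucleotide supply, 7 fell and 2 rose with CLA18:2 (median -0.22), and 5 rose and 1 fell with CLA18:3 (median 0.12). Of all genes 18.6% were lower and 20.1% higher with CLA18:2, and 16.7% lower and 19.1% higher with CLA18:3. The 2 that rose with CLA18:2 are thus a smaller share than among all genes. SHMT1, which encodes a serine hydroxymethyltransferase, fell with CLA18:2 by 0.69 and the salvage kinase gene DCK by 0.54. RRM2B, the p53-inducible alternative to RRM2, rose by 0.20 ± 0.05, and CMPK1 rose by 0.32. DTYMK, which phosphorylates the product of TYMS and TK1, fell by 0.22 with CLA18:2 and rose by 0.30 with CLA18:3. GUK1 (0.41) and NME1 (0.38) rose with CLA18:3.

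Of the regulators, 16 of 26 tested fell and 5 rose with CLA18:2. Of all genes 18.6% were lower and 20.1% higher, so the 5 that rose are close to the share among all genes. E2F2 fell by 1.67, E2F8 by 1.37 and E2F1 by 0.69, the cyclin genes CCNE2 by 0.70, CCNE1 by 0.31 and CCND1 by 0.29, and the kinase gene CDK2 by 0.92. CDKN1A, the inhibitor p21, rose by 0.48 ± 0.04, and TFDP2 and E2F7 rose by 0.70 and 0.40. With RSL3 added, E2F2, E2F8 and E2F1 were higher than with CLA18:2 alone by 1.09, 0.65 and 0.45, and CDKN1A and E2F7 lower by 0.33 and 0.20. CLA18:3 lowered E2F8 by 1.07, E2F2 by 0.88 and SKP2 by 0.61 and raised CDKN1A by 0.40, while E2F1 did not pass (-0.13).

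**Figure D5:**
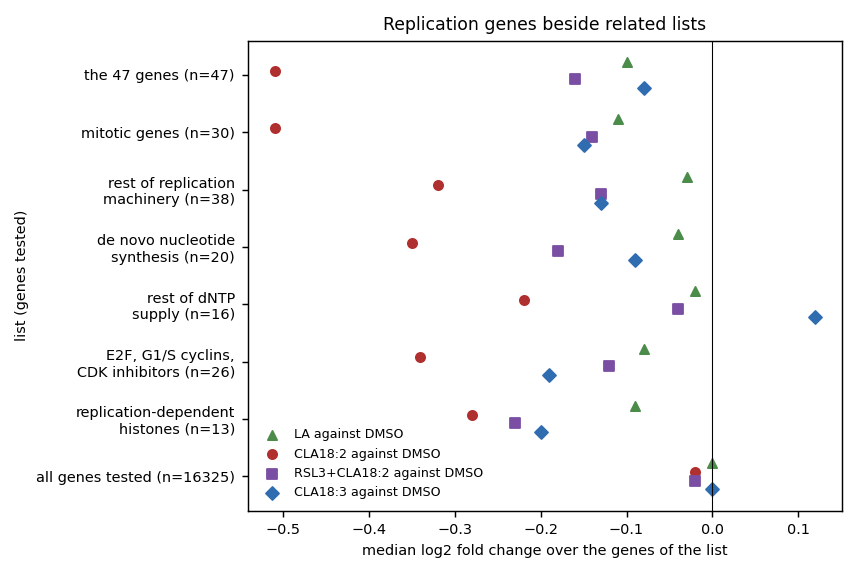
Median log2 fold change (x axis) against DMSO over the 47 genes, 6 related lists and all genes tested, for 4 treatments. The 47 genes and the mitotic genes share the lowest CLA18:2 median, -0.51, and the medians of all genes lie within 0.02 of 0.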

How the data were processed

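RNA-seq of 28 HT-1080 libraries was analysed from the deposited tables of raw gene counts, 1 per group. The submitters' processing notes name hg38 and the tools featureCounts, HISAT, DESeq2 and SAMtools. Versions, annotation and strand setting are not given in the sources used here. Genes were filtered with edgeR's default on the 7 groups, leaving 16325 of 60286 genes with 99.9% of counts. Counts were scaled by TMM, and 1 mean per group was fitted over all 28 libraries with edgeR 4.0.16 (R 4.3.3). The 12 comparisons and 3 interactions were tested with its quasi-likelihood method, with p adjusted after Benjamini and Hochberg over all genes and a threshold of 0.05. SEs were derived from the F statistic, and intervals are at 95%. CPM use library total and TMM factor. The method was tested on simulated data.

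Members and lists were chosen with earlier results of these data known. All 47 genes could be named. Library values were to be given for 17 fixed genes, for the 3 largest and 3 smallest changes with CLA18:2 and CLA18:3, and for every gene called higher anywhere. That last condition took in nearly all 47, so for most of these the values are in the heat map. Other comparisons name the 5 largest called changes, and other lists the 4 smallest p with each conjugated acid and 17 fixed genes, of which some are left to counts and 1 is not reported here. Positions and lengths are from GENCODE release 29 on GRCh38. In that release 21 of the 47 genes overlap exons of another gene, 5 of them over more than 20% of their exon length. These 5 are TYMS, POLA2, MCM2 (22.7%), GINS4 (21.2%) and RRM2 (20.2%). Alternatives were RLE and upper-quartile factors, no filter, DESeq2 1.42.0, limma voom 3.58.1, the compared groups alone, a replicate block and leaving out each replicate. After seeing the data, fits were added with libraries of at least 0.8% mitochondrial mRNA. Others left out replicates 1 and 2 of CLA18:3 and replicate 4 of RSL3+CLA18:2. They kept replicate 4 of CLA18:3, which also stands apart.

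Counting noise limits levels of the least abundant genes such as POLE2. No 2 replicates were identical: over 42 pairs within groups, the lowest ratio of chi-square to its degrees of freedom was 2.42 and the highest 27.6.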

Additional observations from a re-analysis of the deposited data

Results flagged for a closer look

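The response to RSL3 differed with CLA18:2 present, by a test of that difference, for 27 of the 47 genes. The largest were CDT1 (0.54), TYMS (0.50), ORC1 (0.48), DSCC1 (0.46) and RFC2 (0.42), all in log2 units and more positive with CLA18:2. It differed between the isomers for 28 genes, led by DSCC1 (0.63), WDHD1 (0.56), CDT1 (0.52), RFC2 (0.52) and TYMS (0.50).

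In 21 of 343 groups of 4 libraries (6.12%) 1 library lay far from the other 3 by Dixon's ratio at its 95% critical value, where chance gives about 1 in 20. CLA18:3 replicate 2, a library that stands apart in the whole data, accounts for 5: low for MCM4 (218 CPM), GMNN (58.9) and GINS3 (22.7) and high for RFC3 (80.6) and DNA2 (16.4). CLA18:3 replicate 1 was high for CDC45 (54). In RSL3+CLA18:2, replicate 2 was low for GINS3 (20.2) and RFC2 (67.1), and replicate 3, the library of that group with the most mitochondrial mRNA, was low for RPA3 (29.1). CLA18:2 replicate 1 was high for RFC5 (37.6).

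In RSL3+LA, replicate 3 was low for CDC45 (42.3) and RFC4 (47.3), replicate 2 low for DSCC1 (32.9), replicate 1 high for POLD1 (107) and replicate 4 low for POLD3 (26.1). RSL3 replicate 3 was high for POLE2 (12.2). LA replicate 3 was high for RPA2 (63.4) and low for TK1 (138). In DMSO, replicate 2 was low for MCM3 (159) and MCM4 (271) and replicate 4 high for RRM2 (542), gaps that are small beside the differences between groups.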

How the results depend on the processing

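Of 316 calls of single genes, 193 held under every alternative run for them, and 123 did not pass in at least 1, of which 1 turned direction. DESeq2 lost 0, RLE factors 1, limma voom 2, upper-quartile factors 8, the compared groups alone 21, no filter 30 and the libraries of at least 0.8% mitochondrial mRNA 105, with 1 more turned. The compared groups alone called 17 genes in LA against DMSO instead of 6 (2394 of all genes instead of 1358). Over all genes, no filter and DESeq2 called 112 and 66 instead of 33 for RSL3, 164 and 37 instead of 8 for RSL3+LA against LA, 132 and 37 instead of 4 for the RSL3 by LA interaction, and DESeq2 889 instead of 580 for the RSL3 by CLA18:2 interaction.

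Replicate numbers gave no steady pairing of the libraries: 1 of 84 correlations of same-numbered residuals exceeded 0.1 over all tested genes. Over 9047 genes with a mean of at least 10 CPM, 28 exceeded it and 21 were under -0.1, from -0.406 to 0.405. In neither case did a group pair exceed it in all 4 numbers, and 0 libraries correlated best with their own number in every other group. Over all tested genes, the own number was best in 57 of 168 cases of a library and another group, where chance gives about 1 in 4. With a replicate block, 42 genes were called for CLA18:2 against DMSO, 43 for RSL3+CLA18:2 against CLA18:2, 27 for the RSL3 by CLA18:2 interaction and 6 instead of 7 for RSL3+LA against DMSO, and 314 of 316 calls were kept.

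Leaving out 1 library gave 3 to 6 genes for LA against DMSO, 42 to 43 for CLA18:2, 4 to 7 for RSL3+LA, 25 to 29 for RSL3+CLA18:2, 23 to 28 for CLA18:3, 39 to 40 for CLA18:2 against LA, 13 to 19 for RSL3+CLA18:2 against RSL3+LA, 39 to 43 for RSL3+CLA18:2 against CLA18:2, 8 to 13 for RSL3+LA against RSL3, 26 to 33 for RSL3+CLA18:2 against RSL3, 21 to 30 for the RSL3 by CLA18:2 interaction and 23 to 28 for the isomer interaction. Over all genes the lowest counts on leaving out 1 library were 20 for RSL3 (without DMSO replicate 3), 4 for RSL3+LA against LA (without RSL3+LA replicates 1, 2 or 3) and 374 instead of 593 for the isomer interaction (without RSL3+LA replicate 1).

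With libraries of at least 0.8% mitochondrial mRNA, 18 genes were called for RSL3+CLA18:2 against DMSO, 11 against RSL3+LA, 24 against CLA18:2 and 20 against RSL3, with 5 and 11 in the interactions with CLA18:2 and between isomers. POLA2 then turned to -0.02 in RSL3+CLA18:2 against CLA18:2. This setting leaves 1 RSL3+CLA18:2 library, which is assumed to vary like the other groups. Over all genes it called 848 instead of 1949 for RSL3+CLA18:2 against CLA18:2, 2 for the RSL3 by LA interaction, 198 for the RSL3 by CLA18:2 interaction and 204 for the isomer interaction. The cause of these shifts was not tested. With the 250 bases before the start alone, 15 genes held an E2F-type site instead of 21.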

Other observations

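The genes of the mitotic list are mostly known for roles in cell division after replication, though not all of them act only then. With CLA18:2, where 18.6% of all genes were lower and 20.1% higher, 27 of 30 were lower and 0 higher (median -0.51). The 4 with the smallest p were the cyclin gene CCNA2 (-0.84 ± 0.05), the checkpoint target CDC20 (-0.67), ANLN (-0.67), which acts in cytokinesis, and BIRC5 (-0.57), which encodes survivin. With RSL3 added, 26 of 30 were higher than with CLA18:2 alone and 0 lower (median 0.38), beside 6.68% and 5.26% of all genes. With CLA18:3, 15 fell and 1 rose (median -0.15), among them CCNA2 (-0.47), TOP2A (-0.41), ANLN (-0.38) and KIF11 (-0.35). Of all genes 16.7% were lower and 19.1% higher with CLA18:3. With LA, 9 fell and 0 rose, beside 3.41% and 4.91% of all genes.

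Of 20 genes of de novo purine and pyrimidine synthesis, 14 fell and 1 rose with CLA18:2 (median -0.35). Of all genes 18.6% were lower and 20.1% higher. The 14 include PPAT, the first committed enzyme of purine synthesis (-0.56), PRPS2 (-0.55), the CTP synthase gene CTPS1 (-0.51) and the folate enzyme gene MTHFD1 (-0.37). With CLA18:3, 7 fell and 3 rose, beside 16.7% and 19.1% of all genes. PPAT fell by 0.51 and MTHFD1 by 0.16, while the mitochondrial folate enzyme genes SHMT2 and MTHFD2 rose by 0.41 and 0.30. Replication-dependent histone genes, of which 13 were tested, gave 1 lower and 2 higher with CLA18:2, smaller shares than the 18.6% and 20.1% of all genes. H4C8 was higher by 0.94 ± 0.21 and H2BC5 by 0.50, and H2AC6 was lower by 0.28. With CLA18:3, where 19.1% of all genes rose and 16.7% fell, 3 of the 13 rose, among them H1-2 (0.31) and H2BC12 (0.26). H2BC4 fell by 0.63. These genes come in near-identical copies and most of their mRNA lacks a poly(A) tail, so their counts depend on the library type, which is not given in the sources used here.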
